A study of Mus musculus with 47 samples.

Results

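The genes described here are 34 genes of sugar breakdown and of the response to low oxygen, taken from a list of their names: 22 transporters, enzymes and switches of glycolysis and 12 genes of the hypoxia response. A gene was measured by the probe set that names it alone in the platform annotation and, where several do, by the one with the highest mean over all arrays. By this rule 31 of the 34 genes had a probe set. Eno1, Gpi1 and Ankrd37 had none, and Gapdh had only control probe sets, which are described separately. Of the other 30 genes, 25 passed the filter on low signal and were tested among 8675 genes in all, 16 of the glycolysis group and 9 of the hypoxia group. Slc2a3, Slc16a3, Aldoc, Egln3 and Car9 lay below the filter limit (log2 mean of 4.35, under which the lowest 30% of genes fall), and no array exceeded 4.52 for any of them.

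Glycolysis splits glucose into pyruvate in the cytosol, and lactate dehydrogenase turns pyruvate into lactate and back. When oxygen falls, the transcription factor HIF escapes the prolyl hydroxylases that mark its alpha subunit for destruction, and it then raises genes of glucose uptake, glycolysis, vessel growth and mitochondrial turnover. Many growing cells run glycolysis at high rates even with oxygen present, so both groups are commonly read as signs of metabolic state.

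The cells were JB6, a mouse line derived from epidermis and used to study tumour promotion. All groups went through retroviral gene transfer and puromycin selection: 1 line carried a short hairpin RNA against Anxa2 (labelled AnxA2 shRNA, here shRNA cells) and the other the control (labelled Ps vector, here vector cells). The labels do not say whether a line is a clone or a pool. Cells of each line received 10 or 100 cGy of X-rays and were collected at 2, 6 and 24 h, or a sham exposure (here untreated) with collection at 2 and 24 h. This makes 16 groups and 47 arrays, 3 arrays per group except for vector cells at 24 h after 10 cGy, with 2. Nothing in the labels says that replicates came from separate cultures, so the p values may measure technical spread only. These are bulk samples, in which fewer cells with a transcript and less transcript per cell cannot be told apart.

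Anxa2 signal in untreated shRNA cells stood at 34.2% of the vector signal. Of 8 epithelial markers, Cdh1, Epcam, Krt18 and Cldn4 lay under the filter limit in every group, while group means were 4.92 to 5.25 for Krt8, 4.42 to 4.77 for Krt5 and 3.92 to 4.46 for Krt19. Those of Krt14 were 6.06 to 6.84 in shRNA cells but 3.68 to 4.02 in vector cells. Of 7 mesenchymal markers, Vim, Col1a1, Col1a2, Col3a1, Pdgfrb and Fn1 had group means of 8.13 to 13.35 in both lines, and Thy1 lay under the limit. Of 4 leukocyte and 4 endothelial markers, Laptm5 (5.42 to 5.74) and Kdr (4.26 to 4.70) passed it in some or all groups and Ptprc, Cd68, Cd52, Pecam1, Cdh5 and Tek in none. At 2 h, the third replicate of each vector group (untreated, 10 and 100 cGy) was unlike the 6 remaining vector arrays: on the second principal component these 3 lay between the 2 h and the 24 h arrays (-2.37 to 1.75, against -19.6 to -16.9 and 18.3 to 20.6). The signal difference between the 3' and 5' ends of Gapdh, a sign of RNA quality, exceeded 0.3 on 4 of 47 arrays and reached 1.06. The part of these arrays in the results was not tested. Leaving out the 3 vector arrays changes some calls and moves some values of vector cells at 2 h by much. The value without them is then given for many members, but not in every case.

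HIF binds DNA at a short core, written here as ACGTG or GCGTG on either strand. RefSeq promoters (GRCm38.p6, 300 bases each, of which 250 lie before the start) were on hand for 32 of the 34 genes, without Slc2a3 and Ndrg1. 37 of their 46 promoters held at least 1 of these cores, against 43.8% of 32851 promoters in all, and 29 of the 32 genes had a promoter with 1. The share by gene was not counted over all genes. Some promoters of Eno1, Aldoa and Pfkm overlap, so the promoters are not all separate sequences. A match is a string of letters and not a measured binding site. The 250 bases before the start are printed for 5 members that differed by line or by time, Adm, Bnip3, Ldhb, Vegfa and Eno2, with cores in capitals (CACGC and CACGT are the same cores read from the other strand, and CACGTG holds ACGTG on both strands). The windows are chr7:110627407-110627656, plus strand for Adm, chr7:138909507-138909756, minus strand for Bnip3, chr6:142507958-142508207, minus strand for Ldhb, chr17:46032378-46032627, minus strand for Vegfa and chr6:124769674-124769923, minus strand for Eno2.
Adm: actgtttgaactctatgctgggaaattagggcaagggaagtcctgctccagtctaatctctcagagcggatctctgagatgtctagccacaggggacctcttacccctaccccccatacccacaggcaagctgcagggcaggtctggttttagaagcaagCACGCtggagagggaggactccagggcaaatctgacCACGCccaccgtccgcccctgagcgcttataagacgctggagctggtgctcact
Bnip3: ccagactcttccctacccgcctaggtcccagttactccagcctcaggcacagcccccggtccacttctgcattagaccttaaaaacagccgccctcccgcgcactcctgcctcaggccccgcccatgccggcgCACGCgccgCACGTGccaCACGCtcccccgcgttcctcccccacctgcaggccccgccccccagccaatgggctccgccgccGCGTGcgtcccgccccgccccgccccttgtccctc
Ldhb: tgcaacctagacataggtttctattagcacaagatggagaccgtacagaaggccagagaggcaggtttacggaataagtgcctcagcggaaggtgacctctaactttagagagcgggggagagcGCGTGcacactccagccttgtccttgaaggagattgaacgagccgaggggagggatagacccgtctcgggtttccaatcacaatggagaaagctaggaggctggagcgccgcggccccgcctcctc
Vegfa: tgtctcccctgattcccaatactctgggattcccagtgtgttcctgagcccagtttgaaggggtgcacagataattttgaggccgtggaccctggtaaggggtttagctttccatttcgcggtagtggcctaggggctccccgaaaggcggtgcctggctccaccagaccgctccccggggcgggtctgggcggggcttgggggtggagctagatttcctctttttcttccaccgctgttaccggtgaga
Eno2: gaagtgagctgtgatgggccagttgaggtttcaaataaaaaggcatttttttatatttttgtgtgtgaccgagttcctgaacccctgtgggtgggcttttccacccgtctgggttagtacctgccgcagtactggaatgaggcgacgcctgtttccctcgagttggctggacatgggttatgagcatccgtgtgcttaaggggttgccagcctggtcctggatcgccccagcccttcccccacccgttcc
The window of Adm held 2 GCGTG cores, that of Bnip3 held 2 ACGTG and 3 GCGTG, and that of Ldhb held 1 GCGTG. The windows of Eno2 and of this Vegfa promoter held 0, which says only that these letters are not in them. A second Vegfa promoter in the table held 1 of each core.

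All values are log2 signals as deposited, and a difference is that of group means with its standard error from 1 limma fit of all 47 arrays. The p values were adjusted by the Benjamini-Hochberg method across the 8675 genes, and "rose", "fell", "higher" and "lower" stand for an adjusted p under 0.05. Signals of different genes come from different probes and are not set against each other. The groups differed in how much they varied. The range of the 16 group means had a median of 0.46 over the 16 glycolysis genes, of 1.09 over the 9 hypoxia genes and of 0.63 over all 8675 genes. It exceeded 1 for 4 of the 16 (Hk2, Pfkm, Eno2 and Ldhb), for 5 of the 9 (Vegfa, Adm, Bnip3, Ddit4 and Ndrg1) and for 20.9% of all genes. The widest ranges were those of Adm (3.94), Vegfa (3.80) and Ldhb (3.79).

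**Figure D1:**
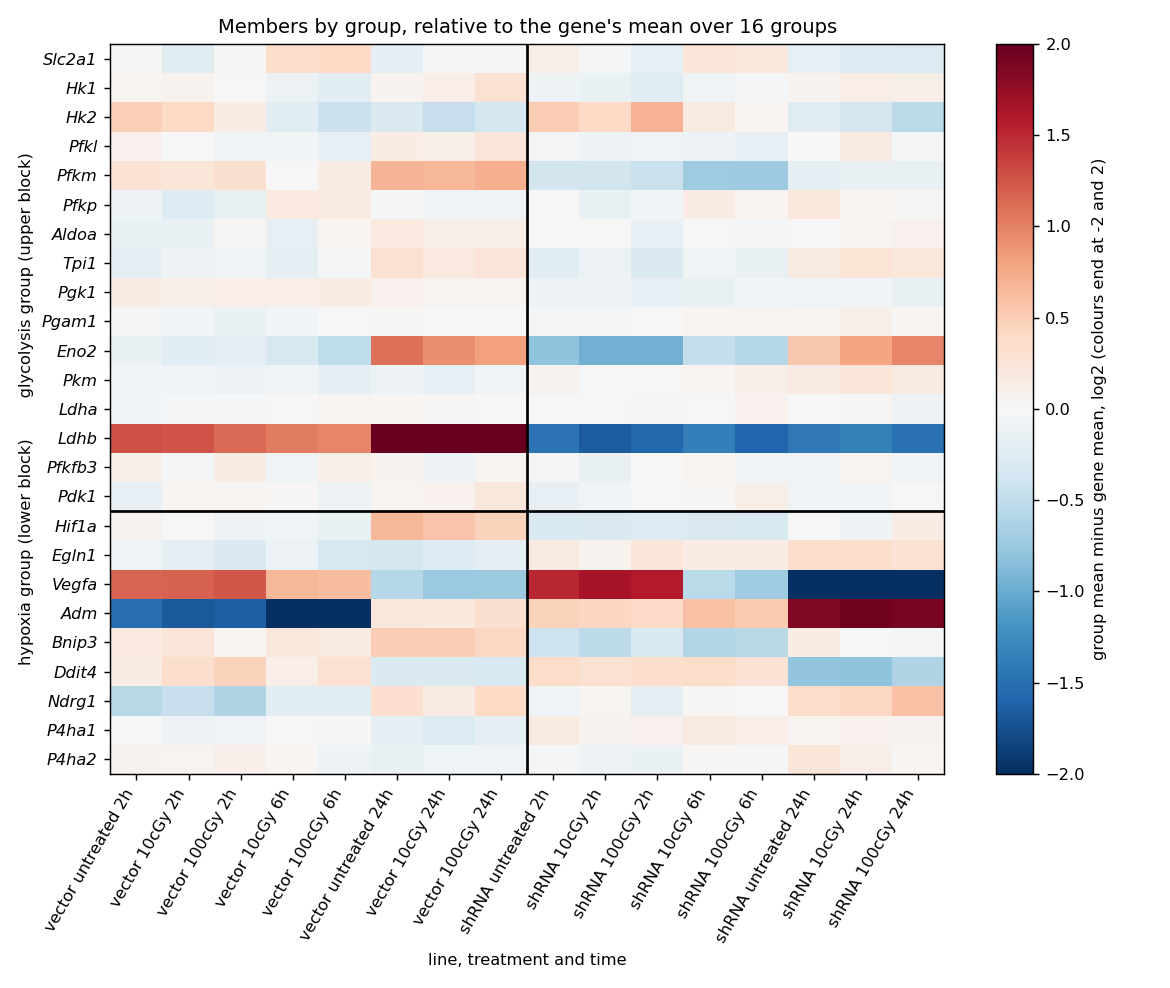
Each cell shows a group mean of log2 signal minus the gene's mean over the 16 groups, for the 25 tested members in rows and the line, treatment and time groups in columns, with colours ending at -2 and 2. Ldhb is high in all vector groups and low in all shRNA groups, Adm shows the opposite with a rise at 24 h, and Vegfa falls from 2 to 24 h in both lines.

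The first question was what separates the 2 lines without irradiation. In untreated cells (2 and 24 h together, 6 arrays per line) 13 of the 25 tested members differed, 7 higher and 6 lower in shRNA cells. Of all tested genes 48.2% differed in this comparison, 24.1% higher and 24.1% lower, so the count is close to the background. In the glycolysis group 2 members were higher and 4 lower of 16, with a median difference of -0.07, and in the hypoxia group 5 were higher and 2 lower of 9, with a median of 0.15. The median over all genes was 0.02.

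Ldhb, the lactate dehydrogenase subunit of tissues that use lactate, had the largest line difference of the members. Its signals in untreated vector cells were 8.30, 8.24 and 8.36 at 2 h and 9.11, 9.11 and 9.27 at 24 h. In untreated shRNA cells they were 5.77, 5.24 and 5.68 at 2 h and 5.95, 5.28 and 5.58 at 24 h. Every vector array lay far above every shRNA array, with no overlap. The difference was -3.15 ± 0.11 (limma adjusted p = 9.13e-24), or 8.86-fold, which left 11.3% of the vector signal. The other 3 probe sets of Ldhb gave -4.37, -4.56 and -5.80. Ldha, the subunit that favours lactate formation, differed by 0.01 ± 0.04 (adjusted p = 0.909), with a 95% interval of -0.08 to 0.10.

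The 3 phosphofructokinase genes, which encode the enzyme that commits sugar to glycolysis, did not move as a group. Pfkm, the muscle form, had signals of 7.79, 7.90 and 7.94 at 2 h and 8.34, 8.22 and 8.20 at 24 h in untreated vector cells. In shRNA cells they were 7.13, 7.33 and 7.18 at 2 h and 7.42, 7.47 and 7.30 at 24 h, below every vector array. The difference was -0.76 ± 0.07 (adjusted p = 1.31e-11). Pfkp, the platelet form, had signals of 7.65, 7.70 and 7.71 at 2 h and 7.80, 7.76 and 7.71 at 24 h in untreated vector cells, and 7.72, 7.78 and 7.85 and then 8.15, 7.97 and 7.91 in shRNA cells. It was slightly higher (0.17 ± 0.05, adjusted p = 0.00723) with arrays that overlapped, and its second probe set gave -0.15. Pfkl, the liver form, differed by -0.13 ± 0.11 (adjusted p = 0.361).

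Of the lower steps of glycolysis, Pgk1, the phosphoglycerate kinase, was lower by a small but even amount. Its untreated signals were 12.33, 12.40, 12.31, 12.30, 12.26 and 12.27 in vector cells and 12.15, 12.10, 12.001, 12.22, 12.09 and 12.04 in shRNA cells, without overlap (-0.21 ± 0.05, adjusted p = 0.000285). Pkm, a pyruvate kinase gene, had signals of 11.68, 11.78, 11.68, 11.78, 11.72 and 11.51 in vector cells and of 11.91, 11.90, 11.74, 11.91, 11.998 and 11.91 in shRNA cells. Pkm was higher by 0.20 ± 0.08 (adjusted p = 0.0291), with overlap. Eno2, the neuronal enolase, was lower by 0.61 on the log2 scale (SE 0.22, adjusted p = 0.0180), again with overlap, and by 0.43 (adjusted p = 0.0266) once those 3 vector arrays were left out.

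The members of glycolysis that did not differ included the glucose transporter Slc2a1 (0.05 ± 0.10), the hexokinases Hk1 (-0.08 ± 0.10) and Hk2 (0.04 ± 0.22), Aldoa (-0.04 ± 0.09), Tpi1 (-0.07 ± 0.07) and Pgam1 (0.01 ± 0.05). The switches Pfkfb3, which makes an activator of phosphofructokinase, and Pdk1, which shuts pyruvate dehydrogenase down, differed by -0.13 ± 0.08 and -0.06 ± 0.09. A second Pfkfb3 probe set, with a lower mean, gave -0.99. Gapdh, read from its 3' control probe set, differed by 0.05 ± 0.05 (adjusted p = 0.472 with control probe sets kept among the genes). Its signal ran from 12.51 to 12.98 over all 47 arrays.

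In the hypoxia group Adm, which encodes the vasodilator peptide adrenomedullin, was the member most raised in shRNA cells. Its signals were 4.84, 4.98 and 5.17 at 2 h and 6.81, 6.64 and 6.77 at 24 h in untreated vector cells. In untreated shRNA cells they were 6.91, 7.05 and 6.95 at 2 h and 8.47, 8.40 and 8.24 at 24 h. No shRNA array lay below a vector array, though the vector cells at 24 h came close to the shRNA cells at 2 h. The difference was 1.80 ± 0.12 (adjusted p = 3.62e-15), or 3.49-fold.

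The oxygen sensing pair moved in opposite directions. Hif1a, the alpha subunit of HIF, had signals of 10.34, 10.22 and 9.94 at 2 h and 10.77, 10.82 and 10.69 at 24 h in untreated vector cells, and of 9.83, 9.90, 9.67 and 10.11, 10.00, 10.20 in shRNA cells. Within each time all shRNA arrays lay below all vector arrays, and values overlapped only across the times. The difference was -0.51 ± 0.08 (adjusted p = 1.38e-06), and the other 3 probe sets gave -0.94, -0.39 and -0.24. Egln1, the prolyl hydroxylase that marks the HIF alpha subunit, had signals of 8.27, 8.26 and 8.69 at 2 h and 8.11, 8.35 and 8.03 at 24 h in vector cells. In shRNA cells they were 8.70, 8.63, 8.70 and 8.93, 8.75, 8.86, so that 1 vector array, untreated 2 h replicate 3, reached into their range. Egln1 was higher by 0.47 ± 0.08 (adjusted p = 2.19e-06), and by 0.39 by its other probe set.

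Bnip3, a protein of the outer mitochondrial membrane that directs mitochondria to breakdown, was lower in shRNA cells. Its signals were 7.53, 7.37, 8.02 and 8.06, 7.84, 7.91 in untreated vector cells at 2 and 24 h, and 6.95, 7.03, 7.08 and 7.73, 7.38, 7.64 in shRNA cells. The lines parted fully within each time, and the difference was -0.49 ± 0.09 (adjusted p = 1.05e-05). Ndrg1, a stress response gene, was higher by 0.24 ± 0.09 (adjusted p = 0.0293). P4ha1 had signals of 7.88, 8.07 and 8.12 at 2 h and 7.82, 7.87 and 7.74 at 24 h in untreated vector cells, and 8.13, 8.22 and 8.20 and then 8.14, 8.18 and 7.88 in shRNA cells, with overlap. P4ha1 and P4ha2, the catalytic subunits of collagen prolyl hydroxylase, were higher by 0.21 ± 0.07 (adjusted p = 0.0114) and 0.15 ± 0.06 (adjusted p = 0.0329), and a second probe set of P4ha1 gave -0.16. Vegfa, the main vessel growth factor, differed by -0.63 ± 0.33 (adjusted p = 0.116), and Ddit4, an inhibitor of the growth kinase mTOR, by -0.14 ± 0.26 (adjusted p = 0.685).

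Vegfa and Ddit4 were the members whose line difference rested most on the 3 vector arrays. Without them Vegfa was lower by 1.02 (adjusted p = 6.88e-12) and Ddit4 by 0.48 (adjusted p = 1.47e-06), and the Ndrg1 difference was 0.15 (adjusted p = 0.166). The weakest calls were lost when a single array was left out. Pkm lost its call (adjusted p 0.0523 to 0.101) without replicate 1 or 2 of the untreated shRNA cells at 2 h, replicate 2 at 24 h, replicate 1 or 3 of the vector cells at 2 h or replicate 3 at 24 h. Ndrg1 lost it (0.0603 to 0.165) without shRNA replicate 2 or 3 at 2 h or 2 at 24 h, or vector replicate 3 at 2 h or 1 or 3 at 24 h. P4ha2 lost it (0.0532 to 0.121) without shRNA replicate 2 or 3 at 2 h or 1 at 24 h, or vector replicate 1 or 2 at 2 h or 3 at 24 h. Eno2 lost it without shRNA replicate 3 at 24 h (adjusted p = 0.0532) or vector replicate 3 at 2 h (adjusted p = 0.0979).

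**Figure D2:**
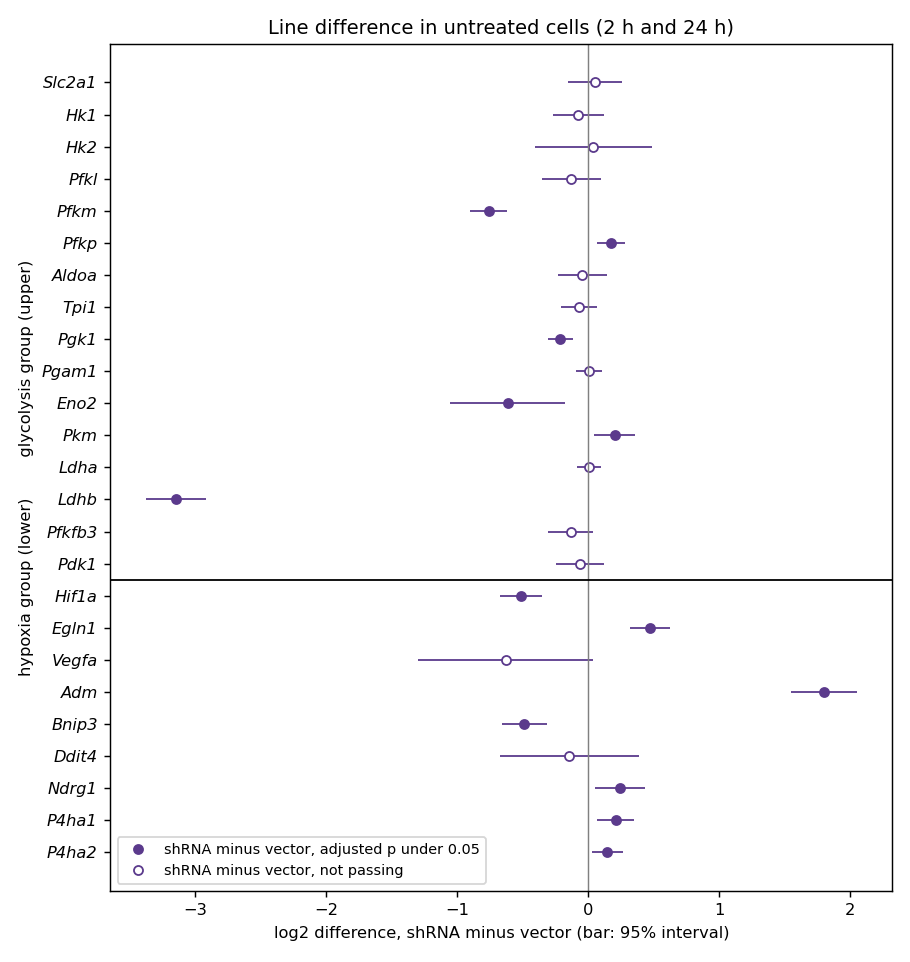
Points show the log2 difference, shRNA minus vector, of each tested member in untreated cells (2 and 24 h together, 6 arrays per line), with 95% intervals from the limma fit; filled points have an adjusted p under 0.05. Ldhb at -3.15 and Adm at 1.80 lie far from the other members, which lie between -0.76 and 0.47.

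Whether these differences lasted was read from the comparison of the lines in each of the 8 conditions. At 2 h, 7 of 25 members differed in untreated cells, 7 after 10 cGy and 9 after 100 cGy, against 33.8%, 33.4% and 40.0% of all genes. At 6 h, 7 differed after 10 cGy and 8 after 100 cGy, against 35.7% and 37.2%. At 24 h, 10 differed in untreated cells, 9 after 10 cGy and 9 after 100 cGy, against 39.3%, 33.7% and 38.3%. These shares of members, between 28% and 40%, were near or below the background.

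The same few genes made up most of these calls. Ldhb, Pfkm and Bnip3 were lower and Adm was higher in shRNA cells in 8 of 8 conditions. The Ldhb difference ran from -3.56 (untreated, 24 h) to -2.40 (10 cGy, 6 h), that of Pfkm from -0.88 to -0.61, that of Bnip3 from -0.81 to -0.35 and that of Adm from 1.57 to 2.58. Pgk1 was lower in 6 conditions, Egln1 higher in 6 and Hif1a lower in 5, with every one of their other conditions on the same side. Vegfa was lower in the 5 conditions at 6 and 24 h, by 1.20 to 1.59. In the 3 conditions at 2 h its difference was 0.33 to 0.46 and did not pass. Without the 3 vector arrays the Vegfa differences at 2 h turned to between -0.46 and -0.34 and Vegfa was lower in 8 of 8 conditions, so its direction at 2 h depends on those arrays. Without them Ddit4 went from 0 called conditions to 6 lower and 1 higher, Hk2 from 0 to 2 higher and 1 lower (-0.55 at 2 h after 10 cGy, adjusted p = 0.00591), and Slc2a1 from 0 to 1 lower (-0.38 at 2 h after 100 cGy, adjusted p = 0.00535). Bnip3 lost its call without single arrays at 2 conditions (2 arrays each, adjusted p 0.0523 to 0.141), and 4 of the 5 Vegfa calls were lost without any of 2 to 6 single arrays (adjusted p 0.0502 to 0.180). Single arrays also decided 3 of the Hif1a calls, 2 of the Pgk1 calls and 1 of the Egln1 calls, with adjusted p of 0.0520 to 0.320 when they were left out.

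**Figure D3:**
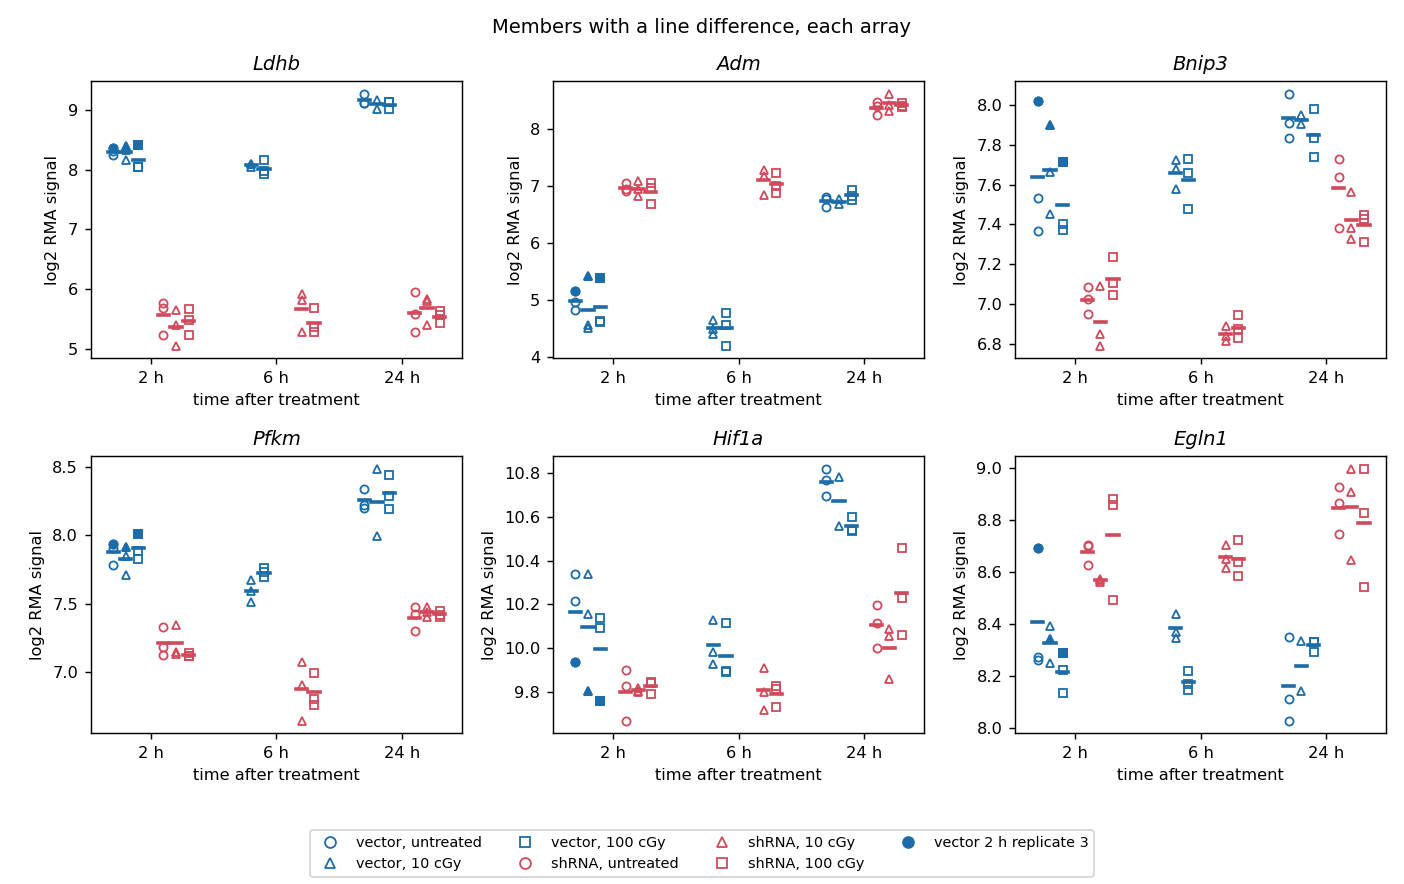
Each point is the log2 signal of 1 array against time, for 6 members with a line difference; circles are untreated, triangles 10 cGy and squares 100 cGy, blue is vector and red shRNA, bars are group means and filled points are replicate 3 of the vector groups at 2 h. The lines are fully apart for Ldhb and Pfkm, within each time for Adm and Bnip3, and Hif1a rises in vector cells at 24 h (10.53 to 10.82).

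The second question was how the members differ between 2 and 24 h in untreated cells. In vector cells 7 of 25 members rose and 2 fell, against 25.9% of all genes called (13.0% up and 12.9% down). In shRNA cells 7 rose and 2 fell, against 19.2% of all genes (10.1% up and 9.14% down). The members called were 36% in each line. In the glycolysis group 4 of 16 rose in vector cells and 3 in shRNA cells, and 0 fell. In the hypoxia group 3 of 9 rose and 2 fell in vector cells, and 4 rose and 2 fell in shRNA cells.

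Vegfa had the largest fall of the members. In untreated shRNA cells its signals were 9.81, 9.75 and 9.71 at 2 h and 6.12, 6.24 and 5.92 at 24 h, a change of -3.66 ± 0.47 (adjusted p = 2.71e-07) or 12.7-fold. In untreated vector cells they were 10.21, 10.21 and 7.83 at 2 h and 7.66, 7.72 and 7.67 at 24 h. The third value at 2 h is from an array that stood apart, and it lies near the 24 h arrays. The change in vector cells was -1.74 ± 0.47 (adjusted p = 0.00485), and -2.53 (adjusted p = 4.43e-17) without the 3 arrays. Leaving out replicate 1 or 2 of the vector cells at 2 h in place of that array ended the call (-1.34, adjusted p = 0.0572 and 0.0515). A second Vegfa probe set gave -3.34 in shRNA cells and -1.55 in vector cells.

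Adm rose from 2 to 24 h in both lines while it differed between them. The change was 1.74 ± 0.17 (adjusted p = 8.31e-10) in vector cells and 1.40 ± 0.17 (adjusted p = 1.93e-07) in shRNA cells, with no overlap between the times in the array values given above. Adm and Vegfa, both secreted factors counted as HIF targets, thus moved in opposite directions over the same interval.

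Eno2 was near the bottom of the scale at 2 h and higher at 24 h. Its signals were 4.39, 4.49 and 5.57 at 2 h and 6.19, 6.06 and 5.87 at 24 h in untreated vector cells, and 4.02, 4.35, 4.05 and 5.58, 5.68, 5.19 in shRNA cells. The high value at 2 h is again replicate 3 of the vector cells. Eno2 rose by 1.22 ± 0.31 in vector cells (adjusted p = 0.00259), by 1.60 without the 3 arrays, and by 1.34 ± 0.31 in shRNA cells (adjusted p = 0.00138). The shRNA mean at 2 h (4.14) lies under the filter limit, and the mean at 24 h was 2.20-fold over that limit.

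Other glycolysis genes rose less. Tpi1, the triose phosphate isomerase, had signals of 10.73, 10.77 and 10.62 at 2 h and 11.24, 10.98 and 11.36 at 24 h in untreated vector cells, and of 10.58, 10.69, 10.79 and 11.08, 11.15, 11.01 in shRNA cells. It rose by 0.49 ± 0.10 (adjusted p = 0.000172) and 0.39 ± 0.10 (adjusted p = 0.00259), and its other 2 probe sets gave 0.37 to 0.61. Pfkm rose by 0.38 ± 0.10 in vector cells (adjusted p = 0.00392) and Pfkp by 0.23 ± 0.08 in shRNA cells (adjusted p = 0.0324). In vector cells Pfkp changed by 0.07 ± 0.08. Its second probe set gave the larger change there, 0.63, against 0.14 in shRNA cells. Gapdh rose by 0.27 ± 0.07 in vector cells (adjusted p = 0.00332), where its untreated signals were 12.68, 12.74 and 12.55 at 2 h and 12.92, 12.88 and 12.97 at 24 h, and differed by 0.07 ± 0.07 in shRNA cells (adjusted p = 0.573). The vector array at 12.55 also had a 3' to 5' difference of 0.594, and its part in the Gapdh change was not tested. Hk2, the inducible hexokinase, changed by -0.76 ± 0.31 in each line and did not pass (adjusted p = 0.0690 and 0.0808). Without the 3 arrays Hk2 fell by 1.11 in vector cells (adjusted p = 8.33e-07) and Slc2a1 by 0.45 (adjusted p = 0.00168).

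In the rest of the hypoxia group Ndrg1 rose in both lines. Its signals were 7.22, 7.41 and 6.75 at 2 h and 7.96, 8.14 and 7.96 at 24 h in untreated vector cells, and 7.39, 7.68, 7.70 and 8.06, 8.16, 7.90 in shRNA cells. The change was 0.90 ± 0.13 (adjusted p = 2.06e-06; 0.71 without the 3 arrays) and 0.45 ± 0.13 (adjusted p = 0.0129), and its 4 other probe sets gave 0.34 to 1.02. Hif1a rose by 0.60 ± 0.11 in vector cells (adjusted p = 0.000116) and changed by 0.31 ± 0.11 in shRNA cells (adjusted p = 0.0534). Its other probe sets gave 1.08, 0.78 and 0.14 in vector cells and, in the same order, 0.18, 0.02 and -0.02 in shRNA cells. Bnip3 rose by 0.56 ± 0.12 in shRNA cells (adjusted p = 0.000772) and changed by 0.30 ± 0.12 in vector cells (adjusted p = 0.0697), or by 0.49 (adjusted p = 0.000413) without the 3 arrays. Ddit4 had signals of 8.50, 8.66 and 8.77 at 2 h and 7.39, 7.56 and 7.54 at 24 h in untreated shRNA cells and fell by 1.15 (SE 0.37, adjusted p = 0.0244). In vector cells its signals were 9.19, 9.02 and 7.09 at 2 h and 7.97, 7.97 and 8.02 at 24 h, a change of -0.45 ± 0.37, or -1.12 (adjusted p = 4.60e-10) without the 3 arrays.

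Several of the smaller calls were lost when a single array was left out. Pfkp in shRNA cells lost its call without replicate 1 or 2 at 2 h or 1 at 24 h (adjusted p 0.0787 to 0.212). Ddit4 lost it without replicate 2 or 3 at 2 h or 1 or 3 at 24 h (0.0566 to 0.0800), and Ndrg1 in shRNA cells without replicate 1 at 2 h or 2 at 24 h (0.0663 to 0.0953).

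Whether the 2 lines changed differently with time was tested as an interaction, which called 5.69% of all genes and 2 of the 25 members. Ldhb rose by 0.86 ± 0.16 in vector cells and changed by 0.04 ± 0.16 in shRNA cells, a difference of -0.82 ± 0.23 (adjusted p = 0.0235). Its other probe sets gave 0.68, 0.83 and 0.66 in vector cells and, in the same order, 0.58, 0.20 and 0.07 in shRNA cells. The first of these thus changed by similar amounts in both lines. P4ha2 had signals of 7.63, 7.59 and 7.70 at 2 h and 7.55, 7.42 and 7.28 at 24 h in untreated vector cells. In shRNA cells its signals were 7.52, 7.55 and 7.57 at 2 h and 7.94, 7.76 and 7.72 at 24 h. It thus fell in vector cells (-0.22 ± 0.08, adjusted p = 0.0424) and rose in shRNA cells (0.26 ± 0.08, adjusted p = 0.0217). The change in vector cells was -0.19 without the 3 arrays and no longer passed (limma adjusted p = 0.124). The P4ha2 difference was 0.48 ± 0.12 (adjusted p = 0.00804), and 0.45 (adjusted p = 0.0183) without the 3 arrays. Fitted on the 4 untreated groups alone, both calls were lost (limma adjusted p = 0.0812 for Ldhb and 0.0822 for P4ha2), and with array weights that of Ldhb was (-0.51, adjusted p = 0.0576). The Vegfa difference was -1.93 ± 0.66 and did not pass (adjusted p = 0.0787), while without the 3 arrays it was -1.13 (adjusted p = 3.67e-05). The Ldhb call was lost without shRNA replicate 1 or 3 at 2 h, shRNA replicate 2 or 3 at 24 h or vector replicate 3 at 24 h (adjusted p 0.0536 to 0.0797). The P4ha2 changes within a line were lost without vector replicate 1 or 3 at 2 h or 2 or 3 at 24 h (0.0764 to 0.260) and without shRNA replicate 1 or 2 at 2 h or 1 at 24 h (0.0538 to 0.152).

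**Figure D4:**
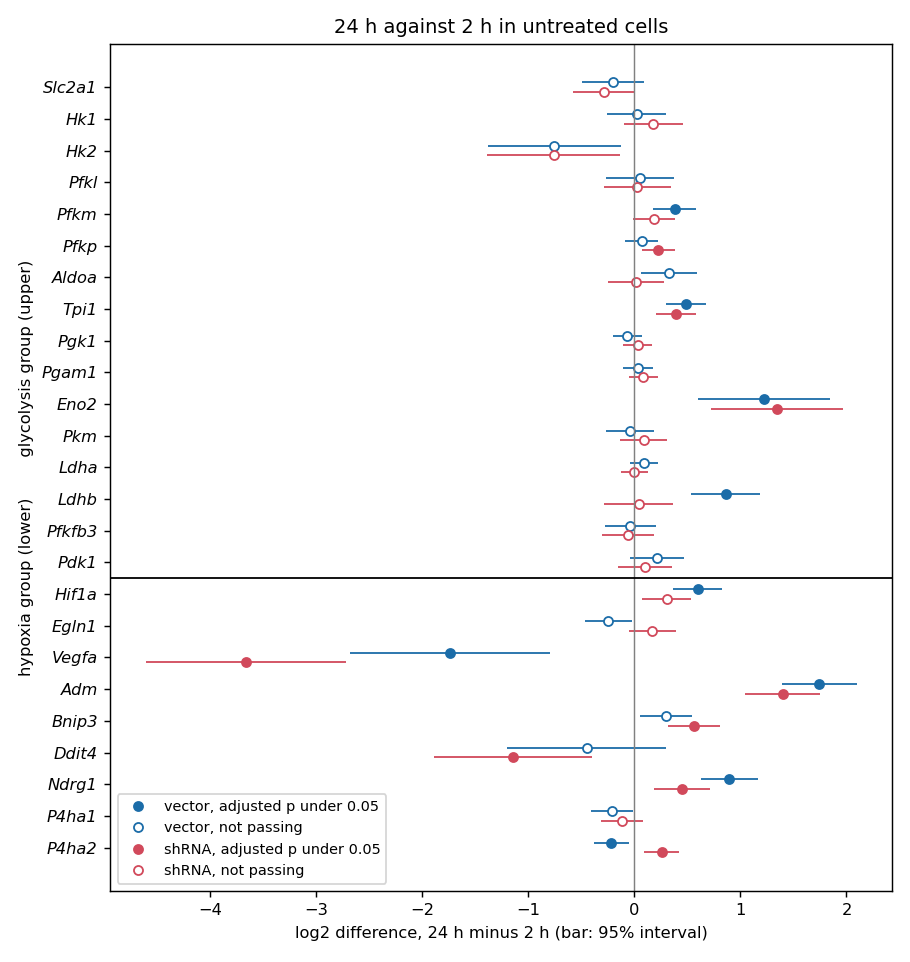
Points show the log2 difference, 24 h minus 2 h, of each tested member in untreated vector cells (blue) and shRNA cells (red), 3 arrays per group, with 95% intervals from the limma fit; filled points have an adjusted p under 0.05. Vegfa lies lowest in both lines (-1.74 and -3.66), Adm and Eno2 lie above 1.2 in both, and most glycolysis genes lie near 0.

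The irradiated cells gave the same interval with group means from other arrays. Both comparisons took their standard errors from the 1 fit of all 47 arrays, so they are not fully independent. The irradiated comparison, 24 h minus 2 h over both doses, was chosen after the untreated values had been seen. In vector cells 12 of 25 members were called, against 35.3% of all genes, and in shRNA cells 14, against 37.3%. Of the 9 members called in untreated cells of each line, 9 were called with the same sign in the irradiated cells. The same share over all genes was not counted, so this repeat may not be particular to the members. Vegfa changed by -1.95 ± 0.35 in vector cells (-2.74 without the 3 arrays) and by -3.68 ± 0.33 in shRNA cells. Adm rose by 1.93 ± 0.13 and 1.51 ± 0.12, Eno2 by 1.09 ± 0.23 (1.49 without the 3 arrays) and 1.85 ± 0.22, Ndrg1 by 0.81 ± 0.10 and 0.57 ± 0.09, and Tpi1 by 0.32 ± 0.07 and 0.46 ± 0.07 (adjusted p 0.000468 or less).

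Further members passed in the irradiated cells. Hif1a rose in both lines (0.57 ± 0.09 in vector and 0.31 ± 0.08 in shRNA cells), as did Bnip3 (0.31 ± 0.09 and 0.39 ± 0.09) and Pfkm (0.41 ± 0.07 and 0.26 ± 0.07), with limma adjusted p of 0.00787 or less. Hk2 fell by 0.68 and 0.98 (adjusted p = 0.0193 and 0.000460), and Ddit4 by 0.69 and 1.03 (adjusted p = 0.0483 and 0.00175). Without the 3 arrays the falls in vector cells were larger, -1.22 for Hk2 and -1.29 for Ddit4 (limma adjusted p = 1.02e-10 and 3.19e-15). P4ha2 again fell in vector cells (-0.16 ± 0.06, adjusted p = 0.0353, which became 0.0711 without the 3 arrays) and rose in shRNA cells (0.21 ± 0.06, adjusted p = 0.00438). Between the lines the changes over this interval differed for 3 members, against 11.7% of all genes: Ldhb (-0.66 ± 0.17), Vegfa (-1.73 ± 0.48) and P4ha2 (0.37 ± 0.08), with limma adjusted p of 0.00603, 0.0138 and 0.00244. Without the 3 arrays these were -0.75, -0.94 and 0.35, each still called. In vector cells Hk2 lost its call without any of 5 single arrays (adjusted p 0.0702 to 0.0789), Ddit4 without any of 9 (0.0660 to 0.165) and P4ha2 without any of 6 (0.0662 to 0.152).

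The 6 h groups show when these changes took place, within irradiated cells only, since untreated cells at 6 h are not among the samples used here. From 2 to 6 h, 4 of 25 members were called in vector cells, against 16.7% of all genes, and 4 in shRNA cells, against 21.5%. From 6 to 24 h, 13 and 11 were called, against 39.0% and 39.2%. Adm rose by 2.27 ± 0.13 and 1.36 ± 0.12 in the later interval, Eno2 by 1.29 ± 0.23 and 1.40 ± 0.22, and Tpi1 by 0.33 ± 0.07 and 0.37 ± 0.07, in vector and shRNA cells. In the earlier interval none of these 3 passed in either line. Hk2 and Ddit4 did not pass there either. Without the 3 vector arrays that stood apart they fell in vector cells by 1.14 and 0.78 (limma adjusted p = 6.56e-10 and 1.14e-09). The difference between the lines, shRNA minus vector, was then 0.71 for Hk2 and 0.79 for Ddit4 (limma adjusted p = 0.00252 and 3.20e-06).

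Slc2a1, the basal glucose transporter, peaked at 6 h. Over the irradiated arrays it rose from 2 to 6 h by 0.48 ± 0.10 in vector cells (adjusted p = 0.000847; 0.36 without the 3 arrays) and 0.32 ± 0.10 in shRNA cells (adjusted p = 0.0223), and fell from 6 to 24 h by 0.42 and 0.49 (adjusted p = 0.00178 and 0.000201). At 6 h the vector arrays read 9.14, 9.10 and 9.14 after 10 cGy and 9.14, 9.07 and 9.31 after 100 cGy, above all 24 h arrays of that line, and the shRNA arrays read 8.93 to 9.09. At 2 h both lines spread widely (8.30 to 9.11 and 8.36 to 9.08, untreated arrays included). Pfkp also rose to 6 h, by 0.38 ± 0.05 and 0.21 ± 0.05, and Pfkm fell, by 0.21 and 0.30, before it rose by 0.61 ± 0.07 and 0.57 ± 0.07 to 24 h. In vector cells the call of the first Pfkm change was lost without any of 8 single arrays (adjusted p 0.0527 to 0.0975). It was also lost without the 3 arrays together (-0.16, adjusted p = 0.164). The call of the Slc2a1 rise in shRNA cells was lost without any of 2 single arrays (0.0537 to 0.0884).

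The change of Vegfa from 2 to 6 h was larger in shRNA than in vector cells by the test of the difference, a call that single arrays decided. In shRNA cells it read 9.71 to 10.01 on the 9 arrays at 2 h, 7.46 to 7.80 on the 6 arrays at 6 h and 5.92 to 6.61 on the 9 arrays at 24 h. In vector cells it read 8.70 to 9.19 on the 6 arrays at 6 h and 7.44 to 7.72 on the 8 arrays at 24 h, after 10.18 to 10.31 at 2 h on 6 arrays and 7.83 to 7.95 on the 3 that stood apart. From 2 to 6 h it fell by 2.24 (SE 0.33, adjusted p = 3.72e-06) in shRNA cells and changed by -0.58 ± 0.33 in vector cells, which became -1.37 (adjusted p = 1.14e-13) without the 3 arrays. The difference between the lines was -1.66 ± 0.47 (adjusted p = 0.0423, 2.85% of all genes called), and -0.87 (adjusted p = 1.38e-05) without the 3 arrays. With them it was lost when any array but replicates 1 and 2 of the vector 2 h groups was left out (20 arrays, adjusted p 0.0507 to 0.0886). From 6 to 24 h it fell by 1.37 and 1.45, and only Ldhb (-0.98 ± 0.17) and Adm (-0.90 ± 0.18) among the members then differed between the lines, against 10.1% of all genes.

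On the 3 vector arrays that stood apart, several members read closer to the 24 h than to the 2 h arrays of that line, whatever the dose. Hk2 read 7.26 to 7.93 there, 8.84 to 9.16 on the other 6 arrays at 2 h and 7.64 to 7.96 at 24 h. Eno2 read 5.45 to 5.62, against 4.29 to 4.49 and 5.55 to 6.19. Ddit4 read 7.09 to 7.51, below both the other 2 h arrays (9.02 to 9.42) and the 24 h arrays (7.94 to 8.04). Other members did not follow: Adm read 5.17 to 5.42 against 6.64 to 6.94 at 24 h, Ldhb 8.36 to 8.41 against 9.01 to 9.27, and Hif1a 9.76 to 9.94, below the other 2 h arrays (10.09 to 10.34) and far from the 24 h arrays (10.53 to 10.82).

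**Figure D5:**
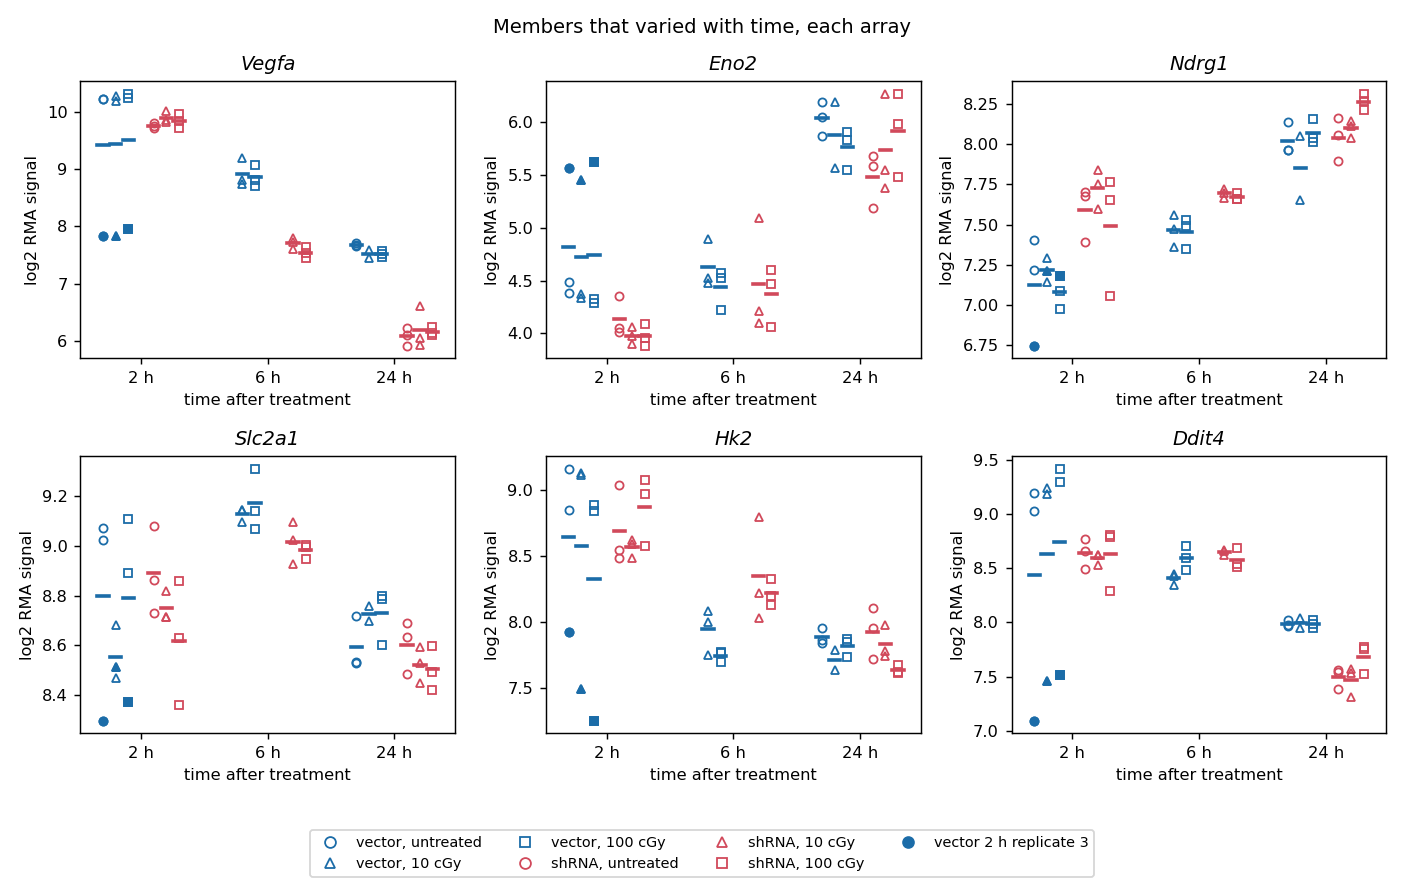
Each point is the log2 signal of 1 array against time, for 6 members that varied with time; symbols, colours and bars are those of the plot of members with a line difference. Filled points, replicate 3 of the vector groups at 2 h, lie away from the open blue points for Vegfa, Eno2, Hk2 and Ddit4, and Vegfa falls to 5.92 to 6.61 in shRNA cells at 24 h.

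The third question was whether radiation changed these genes. In 12 comparisons of a dose with untreated cells of the same time, or of such responses between the lines, and in 9 comparisons of 100 with 10 cGy, in each line and over both, limma called 0 of the 25 members. The background was also low. After 10 cGy, 0%, 0.0115% and 0.0115% of all genes were called at 2 h in vector cells, in shRNA cells and for the difference between the lines, and 0.0115%, 0% and 0.0115% at 24 h. After 100 cGy the shares were 0.0461%, 0.0231% and 0.0115% at 2 h and 0.0922%, 0.161% and 0.0807% at 24 h. Between the doses, in vector cells, in shRNA cells and over both, they were 0.0346%, 0.0231% and 0.0346% at 2 h, 0.0922%, 0% and 0.0807% at 6 h and 0%, 0.161% and 0.115% at 24 h. Of the 525 pairs of a member and a comparison, 7 had an unadjusted p under 0.05, and the smallest adjusted p was 0.466. With arrays weighted by their quality, limma called 3 and 5 pairs in the 2 sets of comparisons, none over 0.63, among them Slc2a1 at 2 h after 10 cGy in vector cells (-0.42, adjusted p = 0.0227) and Hk1 at 24 h after 100 cGy in vector cells (0.33, adjusted p = 0.0313). Outside the tests of a difference between lines, no pair exceeded an absolute difference of 0.43. The largest was Eno2 at 24 h after 100 cGy in shRNA cells (0.43 ± 0.31, 95% interval -0.19 to 1.05), followed by Hk2 at 2 h after 100 cGy in vector cells (-0.32 ± 0.31).

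The 6 largest of these dose differences were those of Eno2, Hk2 and Ddit4. The members with the widest ranges over the groups, Adm, Vegfa and Ldhb, gave similar values at each dose. Vegfa group means at 24 h in shRNA cells were 6.09 ± 0.16 (SD, n = 3) untreated, 6.20 ± 0.36 after 10 cGy and 6.17 ± 0.07 after 100 cGy. Ldhb at 24 h in vector cells read 9.11 to 9.27 untreated, 9.01 and 9.16 after 10 cGy and 9.01 to 9.12 after 100 cGy. Adm at 2 h in shRNA cells read 6.91 to 7.05, 6.82 to 7.10 and 6.69 to 7.06 in the same order. Outside the tests of a difference between lines, the 95% intervals of the members' dose differences reached a median of 0.24 to either side. With those tests, whose intervals are wider, included, they reached from 0.67 to 1.42 for Vegfa and from 0.44 to 0.93 for Eno2. The size of response that could be seen thus differed between members. Replicate 3 of each vector group at 2 h stood apart, and these tests did not pair arrays by replicate number. That spread is part of their standard errors.

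Neighbouring pathways were counted from lists of their genes. In the line comparison 3 of 14 tested further glycolysis and lactate genes were higher and 1 lower, with Eno3 (0.42 ± 0.07) and the lactate carrier Slc16a1 (0.33 ± 0.09) highest. Of 6 pyruvate oxidation genes 4 were lower and 1 higher, led by Pdhb, a subunit of pyruvate dehydrogenase (-1.57 ± 0.11, adjusted p = 2.19e-15). Of 14 tricarboxylic acid cycle genes 6 were lower and 2 higher, and of 6 pentose phosphate genes 4 were lower and 0 higher. Of 21 further genes of the HIF pathway 7 were higher and 6 lower: the collagen cross-linking enzyme Lox (1.35 ± 0.12) and the adenylate kinase Ak4 (1.28 ± 0.08) were highest and the lipase inhibitor Angptl4 (-1.89 ± 0.07) lowest. All are to be read against the 48.2% of genes called.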

How the data were processed

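Mouse expression arrays (Affymetrix, 22690 probe sets, 47 arrays) were read from the deposited table of log2 values, which were made by RMA per the submitters' processing notes. The annotation, build and version behind that step are not given in the sources used here. No renormalization was applied. Probe sets naming 1 gene and no control (20380) gave 12393 genes, 1 probe set each, the one with the highest mean. The 30% of genes with the lowest mean were left out, which left 8675. A limma model (version 3.58.1, R version 4.3.3) with 16 group means gave each comparison, with Benjamini-Hochberg adjustment over all 8675 genes and 31 residual and 5.68 prior degrees of freedom. Depth does not apply to arrays, and their number limits the precision. The fit was tested on simulated data.

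Members and lists were chosen with earlier results of these data known. All listed members are named. Array values are given for the called members with the largest changes by line and by untreated time (up to 6 each way), and promoters are shown for some of these. Up to 3 called genes each way may be named from a further list. Alternatives were no filter, a stricter filter, all probe sets averaged, control probe sets kept, quantile normalization, array weights, replicate blocks, the compared groups only, each array left out, the 3 vector arrays left out, and a promoter window of 200 bases. The irradiated 24 against 2 h comparison and the irradiated differences between lines were added after the data were seen. RefSeq promoters came from a table of GRCm38.p6.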

Additional observations from a re-analysis of the deposited data

Results flagged for a closer look

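In 8 cases the change of a member over time differed between shRNA and vector cells by the test of the difference itself. In untreated cells from 2 to 24 h these were Ldhb (-0.82, shRNA minus vector, on the log2 scale) and P4ha2 (0.48). In irradiated cells from 2 to 24 h, with means from other arrays but the same fit, they were Ldhb (-0.66), P4ha2 (0.37) and Vegfa (-1.73). From 2 to 6 h it was Vegfa (-1.66), and from 6 to 24 h Ldhb (-0.98) and Adm (-0.90). Of the members 8% were called in untreated cells and 4%, 8% and 12% in irradiated cells (2 to 6, 6 to 24 and 2 to 24 h). Of all genes these shares were 5.69%, 2.85%, 10.1% and 11.7%, near those of the members. The irradiated intervals share arrays, so the 8 cases are not separate results. The untreated Ldhb and P4ha2 calls were lost when the 4 untreated groups were fitted alone (limma adjusted p = 0.0812 and 0.0822). The Vegfa values rest in part on the 3 vector arrays at 2 h that stood apart, and are -0.94 and -0.87 without them. The part of those arrays was not tested further.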

How the results depend on the processing

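Of 163 called pairs of a member and a comparison, 106 kept their direction and call under every alternative run. Under at least 1 alternative other than leaving out an array 43 lost the call, and 2 reversed: Pfkp and P4ha1 in untreated cells at 24 h, which became -0.073 and -0.049 with all probe sets of a gene averaged. Counts in brackets are those reported. The untreated change in vector cells had 15 members called with array weights (9). The untreated difference between the lines over time had 7 with array weights and 0 with the compared groups only (2). That in irradiated cells had 16 with array weights and 15 without the 3 vector arrays (6). Dose had 3 and 5 with array weights, against untreated and between doses (0 in each).

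Leaving out 1 array gave 10 to 13 members for the line comparison, 63 to 67 pairs over the 8 conditions, 7 to 12 members for vector and 6 to 9 for shRNA cells over time, and 1 to 4 for their difference. It gave 30 to 33 for the irradiated time course, 23 to 27 for 24 against 2 h, 5 to 6 for their difference, and 0 for dose. With the replicate number as a block, 13, 69, 11, 11 and 3 were called in the first 5 of these, 34 in the time course and 0 for dose, and none of the 163 calls was lost. Same-numbered arrays of 1 line and time tended to deviate together (median r 0.23, 27 of 40 pairs over 0.1, lowest -0.29, against a median of -0.10 and 18 of 80 for other numbers), but not in every pair, so the numbers were not taken as pairs. In vector cells at 2 h replicate 3 of every group stood apart. The reported dose tests do not take out that shared shift. The causes were not tested. Signals near the filter limit, such as Eno2 at 2 h, limit what a fold can show.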

Other observations

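3 of the most changed called genes of the neighbouring lists changed in opposite directions in the lines from 2 to 24 h in untreated cells. They were 2 of the HIF pathway (Angptl4 and Ccng2) and 1 of glycolysis (Bpgm). The test of this difference called 5.69% of all genes, and how many of all genes changed in opposite directions was not counted. Angptl4, an inhibitor of lipoprotein lipase, changed by 0.39 in vector and -1.93 in shRNA cells (difference -2.32, limma adjusted p = 5.82e-16). Ccng2, a cyclin linked to growth arrest, changed by -1.003 and 0.50 (difference 1.50, adjusted p = 1.44e-08). Bpgm, which makes bisphosphoglycerate from a glycolytic intermediate, changed by -0.61 and 0.32 (difference 0.94, adjusted p = 1.46e-05).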
